A study of Mus musculus with 6 samples.

Results

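The transcription factors that specify and maintain sympathetic neurons were followed in N2A cells, a mouse neuroblastoma line, after knockdown of *Paupar*, a long non-coding RNA transcribed next to *Pax6*. The set held 8 genes of the 19938 named genes on the array: *Phox2a*, *Hand1*, *Hand2*, *Gata2*, *Gata3*, *Isl1*, *Insm1* and *Tbx2*. They were taken by name, as the transcript clusters (the probe groups that the array summarises into 1 value) annotated with exactly 1 gene symbol, and each of the 8 genes had a single such cluster. In the knockdown group, N2A cells were transfected with 1.5 µg of a construct for a hairpin RNA that targets *Paupar*, and in the control group they received the same amount of a non-targeting vector. Each group had 3 biological replicates, with total RNA taken 2.5 days after transfection and measured on Mouse Gene 1.0 ST arrays (Affymetrix). Both groups were therefore transfected cells of 1 line, the transfection was transient, and the values are averages over all cells of a well, with or without the vector. The array was used to ask which transcripts change when *Paupar* is reduced. Since no cluster was annotated as *Paupar*, how far the RNA itself was reduced was not analysed here.

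Sympathetic neurons arise from neural crest cells that start to express a set of transcription factors in response to bone morphogenetic proteins from the dorsal aorta. These factors regulate one another, and together they switch on the enzymes and transporters that make and store noradrenaline. The same factors form the core regulatory circuit of adrenergic neuroblastoma cells, the tumour class of this lineage. *Phox2a* encodes a paired-like homeodomain protein, *Isl1* a LIM homeodomain protein, *Hand1* and *Hand2* basic helix-loop-helix (bHLH) proteins, *Gata2* and *Gata3* zinc finger proteins that bind GATA sites, *Insm1* a zinc finger repressor of neuroendocrine progenitors, and *Tbx2* a T-box repressor.

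None of the factors passed the test for a difference between knockdown and control cells. Of the 8 genes, 7 passed the filter on variation across the arrays, and 0 of these 7 had an adjusted p under 0.05 in limma (a linear model with moderated variances, Benjamini-Hochberg adjusted over 9969 genes). The same fit called 752 genes, 7.54% of those tested, of which 238 rose (2.39%) and 514 fell (5.16%) on knockdown. At an unadjusted p under 0.05 the fit held 1 of the 7 factors and 26.3% of all genes tested. The fit without the filter held 3 of the 8 factors and 18.4% of all named genes at that level. The changes lay between -0.25 (*Isl1*) and 0.27 (*Insm1*) on the log2 scale, 4 above and 4 below 0, with a median of 0.03, equal to the median of 0.03 over all named genes. The 95% intervals of the knockdown over control ratio all lay between 0.688 and 1.44, so changes beyond those bounds were outside the interval of every factor. In these bulk samples, fewer cells with a transcript and less of it per cell cannot be told apart. For 3 factors, *Insm1*, *Gata2* and *Hand1*, all knockdown arrays were above all control arrays, as they were for 12.8% of all named genes. For none of the 8 were all knockdown arrays below all controls, a pattern found in 10.8% of named genes.

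**Figure D1:**
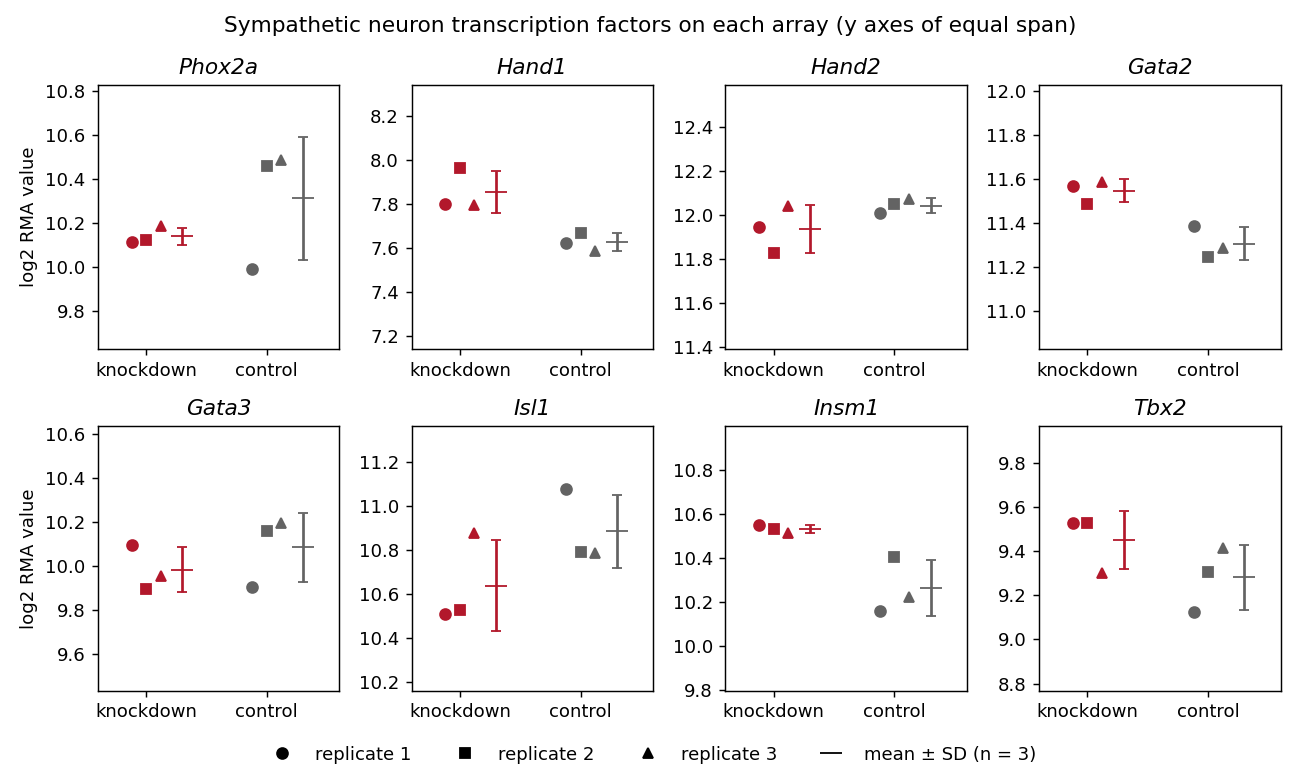
Log2 RMA value of each transcription factor on each of the 3 knockdown and 3 control arrays, with the group mean and SD (n = 3) beside the points and all y axes of equal span. The knockdown arrays stand above the controls for *Hand1*, *Gata2* and *Insm1*, and the groups overlap for the other 5 genes.

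*Phox2a*, on chromosome 7, encodes the homeodomain factor that acts early in the lineage and binds the promoter of *Dbh*. It had log2 values of 10.11, 10.12 and 10.19 on knockdown arrays 1, 2 and 3, and 9.99, 10.46 and 10.49 on control arrays 1, 2 and 3. The 3 knockdown arrays were close together, and they lay between the low control array 1 and the other 2 controls, so that the groups overlapped. The means were 10.14 ± 0.04 in knockdown cells and 10.31 ± 0.28 in control cells (SD, n = 3 each). The difference was -0.17 with a ratio interval of 0.722 to 1.09 (limma adjusted p = 0.448). Without control array 1 it was -0.33 (limma adjusted p = 0.0918), the most negative value of *Phox2a* when single arrays were left out.

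*Isl1* (chromosome 13) encodes a LIM homeodomain factor required for the survival and differentiation of sympathetic neurons. Its values were 10.51, 10.53 and 10.88 on knockdown arrays 1, 2 and 3, and 11.08, 10.79 and 10.78 on control arrays 1, 2 and 3. Knockdown array 3 lay among the controls, whereas the other 2 knockdown arrays were below all of them. The means were 10.64 ± 0.21 in knockdown cells and 10.88 ± 0.17 in control cells (SD, n = 3 each), a difference of -0.25 (limma adjusted p = 0.259). This was the most negative change of the 8 factors, with a ratio interval of 0.688 to 1.03. Without knockdown array 3 it was -0.37 (limma adjusted p = 0.0814).

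*Hand2*, on chromosome 8, maintains the noradrenergic phenotype in differentiated sympathetic neurons. It had 11.95, 11.83 and 12.04 on the knockdown arrays and 12.01, 12.05 and 12.07 on the controls. The controls lay within a narrow band, and knockdown array 3 reached into it. *Hand2* varied too little across the arrays to pass the filter, and in the fit without the filter its difference was -0.11 with a ratio interval of 0.814 to 1.06 (limma adjusted p = 0.563 over 19938 genes). Its partner in the family, *Hand1* on chromosome 11, had 7.80, 7.96 and 7.80 in knockdown cells and 7.62, 7.67 and 7.59 in control cells. All 3 knockdown arrays were above all 3 controls, by a mean of 0.23 on the log2 scale (1.17-fold, ratio interval 0.987 to 1.39), and the test was not passed (limma adjusted p = 0.222).

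The GATA factors bind related sites and act downstream of *Phox2a* in the lineage. *Gata2* (chromosome 6) had 11.57, 11.49 and 11.59 on the knockdown arrays and 11.39, 11.24 and 11.29 on the controls. Every knockdown array was above every control, with means of 11.55 ± 0.05 in knockdown cells and 11.31 ± 0.07 in control cells (SD, n = 3 each). The difference was 0.24 (1.18-fold, ratio interval 0.997 to 1.40), and its limma adjusted p was 0.197. *Gata3* (chromosome 2), which in mice is needed for the expression of the catecholamine enzymes, had 10.10, 9.90 and 9.96 in knockdown cells and 9.91, 10.16 and 10.19 in control cells. Knockdown arrays 1 and 3 and control array 1 each lay among the arrays of the other group. The difference of -0.10 had a ratio interval of 0.773 to 1.12 (limma adjusted p = 0.627).

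The last 2 factors are known as repressors of transcription. *Insm1*, on chromosome 2, is expressed in newly formed neuroendocrine and sympathoadrenal cells and recruits the demethylase KDM1A with its corepressor RCOR1. It had 10.55, 10.53 and 10.51 on the knockdown arrays and 10.16, 10.41 and 10.22 on the controls. The knockdown arrays lay within a narrow band above all controls, and the difference of 0.27 (1.20-fold, ratio interval 1.01 to 1.44) was the highest of the 8 factors. *Insm1* was also the one factor with an unadjusted p under 0.05 in the filtered fit, and its limma adjusted p was 0.166. *Tbx2* (chromosome 11) is a member of the core circuit of human neuroblastoma, where its gene can be amplified. Its values of 9.53, 9.53 and 9.30 in knockdown cells overlapped with 9.12, 9.31 and 9.42 in control cells, and the difference of 0.17 had a ratio interval of 0.933 to 1.36 (limma adjusted p = 0.399).

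Within both bHLH and GATA pairs, 1 gene had a positive and 1 a negative difference, and the change of the log2 ratio within each array was tested after these values had been seen. Over 4 such ratios, the *Hand1* over *Hand2* ratio changed by 0.33 on knockdown (1.26-fold), with 0.27, 0.55 and 0.17 on the knockdown arrays and 0.03, 0.04 and -0.07 on the controls, each relative to the control mean. These did not overlap, and the exact two-sided permutation test over the 6 arrays gave p = 0.1, the smallest this design allows (adjusted p = 0.133). The *Gata2* over *Gata3* ratio changed by 0.34 (1.27-fold), with overlapping groups and an exact permutation p of 0.2. With 3 arrays against 3, no ratio could have reached 0.05.

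Single arrays stood apart from their group for some of the factors. Control array 1 was 0.32 below its group mean for *Phox2a*, 0.18 below it for *Gata3*, 0.16 below it for *Tbx2* and 0.19 above it for *Isl1*. Knockdown array 3 was 0.24 above its group mean for *Isl1* and 0.15 below it for *Tbx2*. Over the 9969 genes that passed the filter, these arrays had the largest spread about their group means. The SD was 0.17 on knockdown array 3 and 0.18 on control array 1, against 0.11 to 0.15 on the other 4 arrays. Their part in the values of the factors is shown by leaving each out. The direction of each of the 8 differences was the same in all 6 fits that left out 1 array, and no factor passed the test in any of them.

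**Figure D2:**
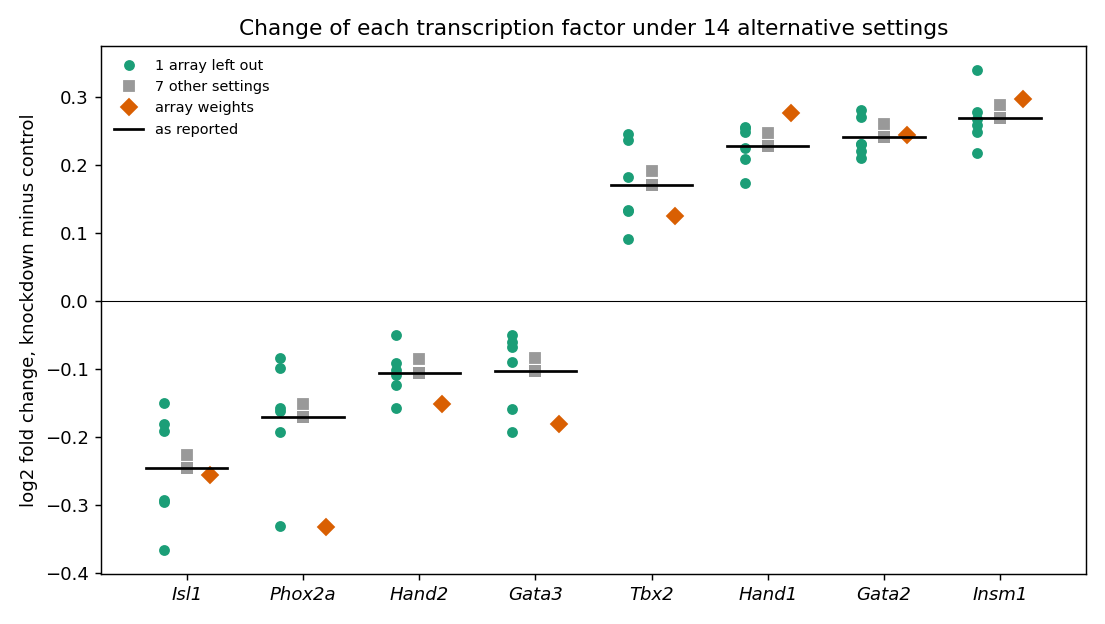
Log2 fold change (knockdown minus control) of each factor as reported and under 14 alternatives: each of the 6 arrays left out, a fit with array weights, and 7 other settings. No factor crosses 0, and *Phox2a* and *Isl1* move furthest when single arrays are left out.

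One alternative changed the calls. With array weights, which let limma weight each array by how closely it follows its group, 5 of the 7 tested factors passed, and so did 55.8% of all genes tested. *Insm1* (0.30, limma adjusted p = 0.00639), *Hand1* (0.28, 0.0104) and *Gata2* (0.24, 0.0158) were then called higher, and *Phox2a* (-0.33, 0.0056) and *Isl1* (-0.26, 0.0197) were called lower. The weights were 1.93, 1.96 and 0.312 on the knockdown arrays and 0.289, 0.66 and 4.44 on the controls, so that control array 3 carried most of its group. The other 13 alternatives called 0 of the factors.

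Genes of the noradrenergic program, some of which these factors are known to drive, did differ. The list held 30 genes: catecholamine enzymes, vesicular transporters, granins, neuropeptides, receptors and channels of sympathetic neurons, and other neuronal genes such as *Elavl4* and *Stmn2*. Of these, 29 were measured and 18 passed the filter. On knockdown 10 of the 18 fell (5.16% of all genes tested) and 0 rose (2.39% of all), and 12 of the 29 had all knockdown arrays below all controls (10.8% of all named genes). The median change of the 29 was -0.15, with 20 below 0 and 9 above, against a median of 0.03 over all named genes. The list was chosen with earlier results of these data known, so its count is a description.

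The capital letters in 4 promoters show where sequences of the kinds bound by these factors stand, in the 2 catecholamine enzyme genes that fell and in the 2 factors whose promoters held such letters. They were chosen with the matches known. Promoters of 300 bases, 250 before and 50 after the start of transcription, came from RefSeq (GRCm38.p6). They were found for 5 of the 8 factors (*Phox2a*, *Hand2*, *Gata2* with 2 starts, *Gata3* and *Isl1*) and for 20 of the 30 program genes. The motifs, searched on both strands, were ATTA for homeodomain factors, AGATAA for GATA factors and CATCTG for bHLH factors. ATTA was in 58.0% of all 32851 promoters of this length, AGATAA in 11.2% and CATCTG in 17.2%. Each sequence reads 5′ to 3′ along the gene, and capitals mark a match on either strand.
*Dbh* (chr2:27165257-27165556, plus strand): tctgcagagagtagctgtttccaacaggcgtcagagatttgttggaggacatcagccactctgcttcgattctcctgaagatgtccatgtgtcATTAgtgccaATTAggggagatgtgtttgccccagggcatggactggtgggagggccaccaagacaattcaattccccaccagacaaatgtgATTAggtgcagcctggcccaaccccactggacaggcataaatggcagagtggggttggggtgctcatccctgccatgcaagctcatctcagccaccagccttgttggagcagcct
*Th* (chr7:142899946-142900245, minus strand): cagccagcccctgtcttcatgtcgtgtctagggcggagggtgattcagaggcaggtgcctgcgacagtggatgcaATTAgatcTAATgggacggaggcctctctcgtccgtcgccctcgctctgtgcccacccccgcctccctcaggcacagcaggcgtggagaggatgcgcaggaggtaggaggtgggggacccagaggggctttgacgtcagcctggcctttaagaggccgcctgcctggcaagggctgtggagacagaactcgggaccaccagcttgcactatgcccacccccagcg
*Hand2* (chr8:57320733-57321032, plus strand): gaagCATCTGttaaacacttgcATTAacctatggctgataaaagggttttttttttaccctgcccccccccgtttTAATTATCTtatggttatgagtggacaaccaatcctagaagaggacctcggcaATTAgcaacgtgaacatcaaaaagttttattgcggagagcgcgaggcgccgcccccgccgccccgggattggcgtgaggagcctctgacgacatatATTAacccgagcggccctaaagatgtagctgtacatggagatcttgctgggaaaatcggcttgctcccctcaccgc
*Isl1* (chr13:116309639-116309938, minus strand): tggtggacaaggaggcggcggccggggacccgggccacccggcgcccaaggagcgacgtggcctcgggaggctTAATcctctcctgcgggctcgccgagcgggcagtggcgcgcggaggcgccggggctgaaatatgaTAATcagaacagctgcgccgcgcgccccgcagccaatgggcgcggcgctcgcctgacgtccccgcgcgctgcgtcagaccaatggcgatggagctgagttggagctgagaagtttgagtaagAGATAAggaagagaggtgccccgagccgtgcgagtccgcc
The promoter of *Dbh* held 3 ATTA matches, which begin at -157, -147 and -65 relative to the start (+1), and that of *Th* held 2, at -175 and -167. The *Hand2* promoter held 5 ATTA matches, 1 AGATAA and 1 CATCTG, with 2 overlaps among them where TAATTATCT runs ATTA and AGATAA together. The *Isl1* promoter held 2 ATTA and 1 AGATAA. Neither start of *Gata2*, nor *Phox2a* or *Gata3*, had any of these letters in the window. Of the 10 program genes that fell, 8 had a promoter listed. Of these 8, 3 (*Dbh*, *Th* and *Slc18a2*) held at least 1 match and 5 (*Npy*, *Cacna1b*, *Chrna3*, *Chgb* and *Alk*) held none. This was no larger a share than the 58.0% of all promoters with ATTA. *Ddc*, which did not pass the test, held 3 ATTA at 1 start and 2 at the other. Over all 6 factor promoters ATTA was in 2, AGATAA in 2 and CATCTG in 1. Over the 24 promoters of program genes the counts were 11, 4 and 4. Of these 24, *Elavl4* had 4, and its starts 2 and 3 lay in overlapping windows with the same matches, which were counted at both.

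*Dbh* encodes dopamine beta-hydroxylase, which makes noradrenaline from dopamine. It had log2 values of 9.24, 9.23 and 9.44 on the knockdown arrays and 10.32, 10.39 and 10.46 on the controls. The groups were far apart, and *Dbh* fell by 1.09 on the log2 scale (2.13-fold lower, 95% interval -1.34 to -0.83, limma adjusted p = 0.000687). *Slc18a2*, the vesicular monoamine transporter that loads catecholamines into vesicles, had 11.50, 11.39 and 11.80 in knockdown cells and 12.48, 12.40 and 12.48 in control cells, and fell by 0.89 (limma adjusted p = 0.00244). *Th*, which encodes the enzyme of the first and limiting step of the pathway, had 8.49, 8.72 and 8.86 in knockdown cells and 9.43, 9.17 and 9.50 in control cells, and fell by 0.68 (limma adjusted p = 0.0105). *Npy*, a neuropeptide co-released with noradrenaline, fell by 0.67 (limma adjusted p = 0.00751).

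The other 6 program genes that fell are named after their values were seen. They were *Slc18a1* (-0.66), the second vesicular monoamine transporter, *Cacna1b* (-0.57), the pore of N-type calcium channels, *Chrna3* (-0.54), the nicotinic receptor subunit of ganglia, *Ntrk3* (-0.50), the neurotrophin-3 receptor, the granin *Chgb* (-0.45) and the receptor kinase *Alk* (-0.44). Their limma adjusted p values lay between 0.0135 (*Chrna3*) and 0.0491 (*Alk*). The granin *Chga* had -0.34 with no overlap of the groups and did not pass (limma adjusted p = 0.0889). *Ret*, the receptor of glial cell line-derived neurotrophic factor, had -0.17 (limma adjusted p = 0.398) with overlapping groups. Of the other enzymes of the pathway, *Ddc* had 0.04 with a ratio interval of 0.82 to 1.30, and *Gch1* had 0.02 with a ratio interval of 0.901 to 1.15.

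**Figure D3:**
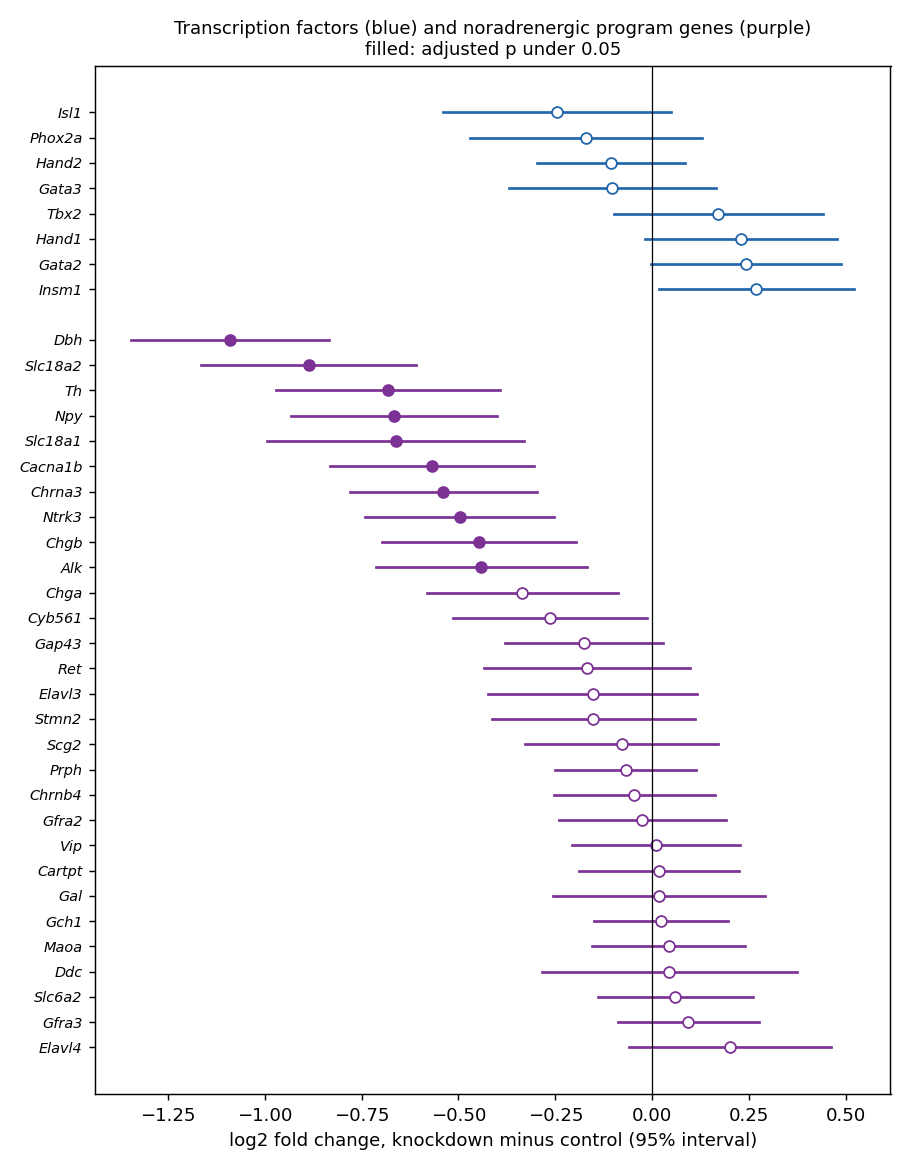
Log2 fold change (knockdown minus control) with its 95% interval for the 8 transcription factors (blue, top) and the 29 measured genes of the noradrenergic program (purple, below), filled where the limma adjusted p was under 0.05. The factors lie between -0.25 and 0.27 with no filled point, and 10 program genes from *Dbh* (-1.09) to *Alk* (-0.44) are filled.

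Set against *Phox2a* on the same array, the log2 ratio of *Dbh* changed by -0.92 (1.89-fold lower) and that of *Th* by -0.51 (1.42-fold lower). Both ratios were lower on all 3 knockdown arrays than on all 3 controls, and each had an exact permutation p of 0.1, the smallest possible (adjusted p = 0.133 over the 4 ratios). The mean of all 29 program genes on each array, relative to the control mean, was -0.27, -0.30 and -0.20 on the knockdown arrays and 0.01, -0.03 and 0.02 on the controls. For the 8 factors the same mean was 0.04, 0.01 and 0.06 on the knockdown arrays and -0.07, 0.03 and 0.03 on the controls, with overlap.

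**Figure D4:**
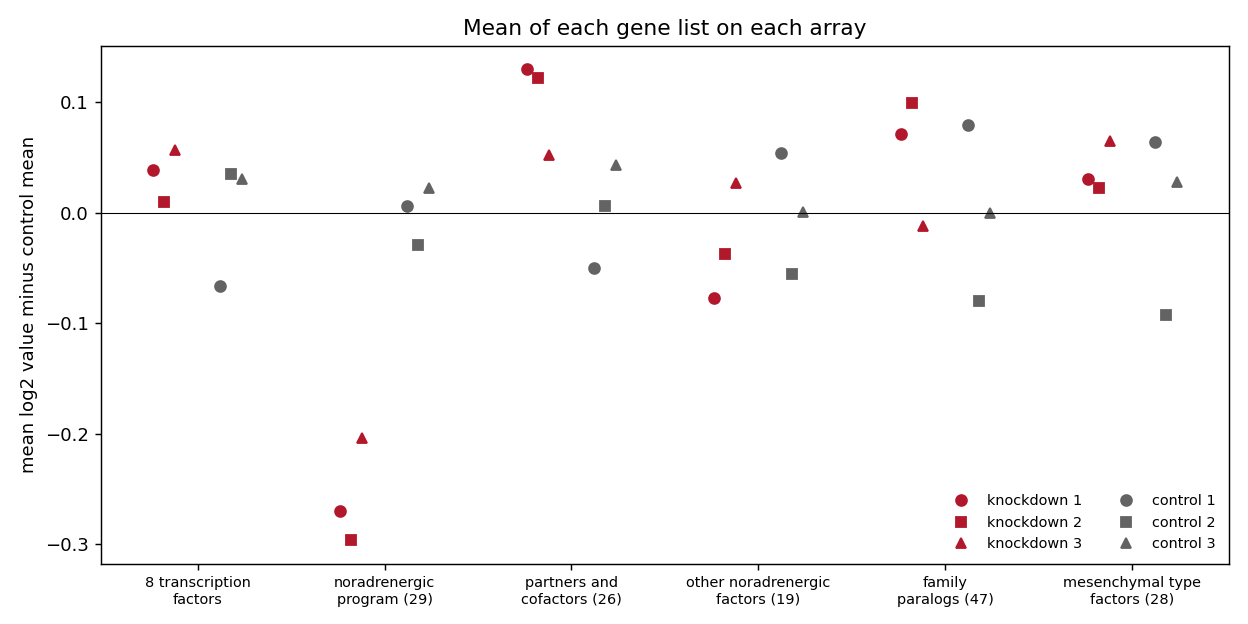
Mean log2 value of each gene list by array, relative to the average of the 3 controls, for the 8 factors and 5 other lists (number of measured genes in brackets), with knockdown arrays in red to the left of the controls in grey. The program list has its 3 knockdown arrays at -0.20 or lower, whereas the 8 factors stay between -0.07 and 0.06 on every array.

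The count of program genes depended on the arrays and on the clusters in the fit. It was 2 without control array 3, 3 without knockdown array 1 and 4 without knockdown array 2. It was 5 without control array 1, 8 without control array 2 and 10 without knockdown array 3. In that order these fits called 112, 201, 138, 242, 786 and 1239 of all genes tested, against 752 with all arrays. *Dbh* and *Slc18a2* passed in all 6 of them. When clusters with several or no gene names were kept in the fit, 0 program genes and 0 of 17778 clusters passed (lowest limma adjusted p = 0.093), although 11 program genes and 3015 clusters had an unadjusted p under 0.05.

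The partners through which the factors act gave 1 call among 13 tested (7.69%, against 7.54% of all genes tested). They comprise the LDB1 and LMO adaptors of LIM proteins, the E proteins that pair with bHLH factors, the FOG cofactors of GATA proteins, the bHLH proteins TAL1, TAL2 and LYL1, the corepressors bound by INSM1, single-stranded DNA-binding proteins that join LDB1, the acetyltransferases CREBBP and EP300, and a phosphatase subunit (*Ppp2r5d*), 26 genes in all, of which 13 passed the filter. *Zfpm1*, which encodes FOG1, the cofactor that binds GATA1, GATA2 and GATA3, had 11.24, 11.19 and 11.19 on the knockdown arrays and 10.62, 10.61 and 10.84 on the controls. It rose by 0.52 with no overlap between the groups (1.43-fold, ratio interval 1.20 to 1.70, limma adjusted p = 0.0209). The call held in 2 of the 6 fits that left out 1 array and was lost without knockdown array 1 (limma adjusted p = 0.0904), knockdown array 2 (0.0919), control array 1 (0.0591) or control array 3 (0.056).

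The other 12 tested partners did not pass. Of all 26, 18 had a positive difference, as had 11649 of the 19938 named genes, and the median was 0.09, against 0.03 over all named genes. All knockdown arrays were above all controls for 7 of the 26 (12.8% of all named genes), *Zfpm1* included, and below them for 2 (10.8% of all named genes). Those named here were chosen after their values were seen. *Lyl1*, a bHLH protein found with GATA2 in blood progenitors, had 8.66 ± 0.09 in knockdown cells and 8.26 ± 0.05 in control cells (SD, n = 3 each), with a limma adjusted p of 0.0507, just short of the threshold. *Rcor3* (0.37, limma adjusted p = 0.0734) and *Rcor1* (0.26, 0.183), corepressors of the KDM1A complex, the E protein gene *Tcf3* (0.25, 0.188) and *Ldb1* (0.15, 0.397), the partner of ISL1, also had all knockdown arrays above all controls. The 2 partners with all knockdown arrays below all controls were the acetyltransferase gene *Ep300* (-0.18, limma adjusted p = 0.335) and *Tcf12* (-0.11), a second E protein gene, which did not pass the filter.

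Other transcription factors of the noradrenergic state gave no call. Of 21 such genes, 19 were measured, 10 passed the filter and 0 of the 10 passed the test. In limma 1 of the 10 had an unadjusted p under 0.05 (10%, against 26.3% of all genes tested). Their median change was -0.01. *Klf7*, a zinc finger factor of sensory and sympathetic neurons, had 11.64 ± 0.18 in knockdown cells and 11.80 ± 0.16 in control cells, and *Satb1*, a chromatin organiser, had 11.04 ± 0.13 in knockdown cells and 11.27 ± 0.15 in control cells (SD, n = 3 each). For both genes the groups overlapped.

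Paralogs of the 8 factors, which share their DNA-binding domains, gave no call either. Of 47 measured paralogs, 27 passed the filter, and 0 of these passed the test. In limma 4 of the 27 had an unadjusted p under 0.05 (14.8%, against 26.3% of all genes tested). *Trps1*, an atypical GATA protein that represses transcription, had 10.97 ± 0.14 in knockdown cells and 11.11 ± 0.10 in control cells, and *Gata4* had 10.59 ± 0.03 in knockdown cells and 10.55 ± 0.04 in control cells (SD, n = 3 each). The mesenchymal state of neuroblastoma is opposed to the adrenergic one. A list of its factors, with markers and receptors such as *Vim*, *Fn1*, *Cd44* and *Notch2*, gave 1 call among 14 tested of 28 measured. This was 7.14%, against 7.54% of all genes tested. *Tead1*, the DNA-binding partner of YAP, had 10.75, 10.56 and 10.68 in knockdown cells and 11.37, 11.07 and 10.95 in control cells and fell by 0.47 (limma adjusted p = 0.0456), a call that was lost whichever array was left out. Its 2 clusters both had all knockdown arrays below all controls.

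*Pax6*, the neighbour of *Paupar*, had 8.92, 8.85 and 8.70 on the knockdown arrays and 8.32, 8.72 and 8.69 on the controls. The groups overlapped, *Pax6* did not pass the filter, and its difference of 0.24 had an adjusted p of 0.32 in the limma fit without the filter.

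Markers of sympathetic cells, glial and Schwann cells, fibroblasts and muscle, and blood and endothelium were read in the same fit. The array gives no true 0, and clusters differ in their probes, so the levels of different genes, the 8 factors included, were neither put in order nor used to tell which cell types were present. Of 10 measured sympathetic markers 8 passed the filter and 4 fell (*Dbh*, *Th*, *Slc18a1* and *Chgb*), all of them program genes counted above, beside 5.16% of all genes tested. Of 11 measured glial markers 2 passed the filter and 1 of these, *Erbb3*, fell (-0.63, limma adjusted p = 0.0133). Of all 11, 8 had a positive and 3 a negative difference, with a median of 0.10. The sum of the linear values of all 11 was 1475 to 1516 on knockdown arrays and 1526 to 1723 on controls. Their mean log2 values overlapped, at 6.92, 6.95 and 6.89 on the knockdown arrays and 7.01, 6.84 and 6.83 on the controls. Of 13 fibroblast and muscle markers 8 passed the filter and 0 the test, with 1 at an unadjusted p under 0.05 in limma. Of 10 blood and endothelium markers 4 passed the filter and 0 the test, with 0 at that unadjusted level (26.3% of all genes tested). Their sums were 2386 to 2501 on knockdown arrays and 2225 to 2997 on controls for fibroblasts and muscle, and 1065 to 1169 on knockdown arrays and 976 to 1227 on controls for blood and endothelium. The part of other cell types in the results was not tested.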

How the data were processed

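The authors deposited log2 expression values per transcript cluster from 6 Affymetrix Mouse Gene 1.0 ST arrays, background corrected, quantile normalised and summarised by RMA with the oligo package. They then removed genes of little variation and tested with limma, and the sources used here state neither versions nor the genome build. Quantile normalisation gives all arrays nearly the same distribution, so the values are relative to the other genes of an array. Of 35556 clusters, 21789 had 1 gene symbol in the platform annotation, 1621 had several and 12146 had none. The 21698 matched to RefSeq by Entrez identifier kept their symbols. Each of 19938 named genes took its cluster with the highest mean (999 genes had more than 1), and the array medians were between 7.85 and 7.92. The 50% of genes with the smallest interquartile range over the 6 arrays were removed, where the choice of that measure was made here. Knockdown minus control was tested on the remaining 9969 genes with limma 3.58.1 (lmFit and eBayes, R 4.3.3), Benjamini-Hochberg adjusted at a threshold of 0.05, and checked on simulated data. The number of arrays, 3 per group, limits the precision. A gene that did not pass the filter took its values from the same fit over all named genes. Ratios between 2 genes on an array were compared with the exact permutation test.

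The 8 factors and all gene lists were chosen with earlier results of these data known. Named genes are the 8 factors, up to 4 called genes per list with the largest change or, where none was called, the 2 with the highest mean, and *Pax6*. Others are marked as chosen after their values were seen, and *Chga*, *Ret*, *Ddc*, *Gch1* and *Erbb3* were chosen in the same way. Alternatives were no filter, a variance filter, all clusters, the mean of a gene's clusters, centring on the median, a trended and robust variance, array weights, the replicate number as a block, and each array left out.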

Additional observations from a re-analysis of the deposited data

How the results depend on the processing

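All 8 factors kept the sign of their difference under all 14 alternatives, and array weights was the one alternative that called any of them (5, with 5561 genes called in all). Array weights also called 7 partners, 3 other noradrenergic factors, 13 paralogs and 4 genes of the mesenchymal list. Without the variance filter 2 partners and 0 mesenchymal genes passed, as with arrays centred on their median. The latter fit called 682 genes in all, of which 257 rose and 425 fell. The mean of a gene's clusters gave 2 partners, and a trended, robust variance gave 3. *Lyl1* was the partner that joined *Zfpm1* in these fits, and *Rcor3* joined in the last. With all clusters in the fit, 0 genes, 0 program genes, 0 partners and 0 mesenchymal factors passed, and 3015 of 17778 clusters had an unadjusted p under 0.05 in limma. The prior degrees of freedom that limma estimated were 3.82 there and 10.6 for named genes, and the cause was not tested. Leaving out 1 array gave 112 to 1239 genes: 201, 138 and 1239 without knockdown arrays 1, 2 and 3, and 242, 786 and 112 without control arrays 1, 2 and 3. The same fits gave 2 to 10 program genes, 0 to 2 partners and 0 mesenchymal genes. *Ddc* ranged from -0.10 to 0.18 over them, below 0 in 3 of 6.

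The labels number the replicates 1 to 3 in both groups. The deviations of same-numbered arrays from their group means correlated at -0.34, 0.10 and 0.08. Those of arrays with different numbers correlated at -0.37 (knockdown array 3 with control array 2) to 0.44 (knockdown array 1 with control array 2). The arrays were treated as sharing only a number, and a link between arrays in another order was not tested. With the replicate block 680 genes, 9 program genes and 0 factors passed. With 3 arrays per group, the intervals of the factors together span ratios from 0.688 to 1.44, so a missed threshold does not show that a factor was unchanged.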
